A study of Rattus norvegicus with 55 samples.

Results

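The genes described here encode the nuclear-made proteins of the mitochondrial respiratory chain and the ATP synthase, measured in 55 rat kidney arrays. They were taken by gene symbol: every gene named by a single symbol that begins with Nduf, Uqcr, Cox4 to Cox8, Atp5, Cycs or Cyc1, or that is Sdha, Sdhb, Sdhc or Sdhd or begins with one of these names. Where a gene had several probe sets, the probe set with the highest mean over the 55 arrays stood for it. This gave 56 genes, read by 102 probe sets, of 4737 genes named in this way on the array. By complex they are 27 genes of complex I, 2 of complex II, 4 of complex III, 13 of complex IV and 10 of the ATP synthase (complex V). The names were taken as a family, so they include some that are not subunits: the assembly factors Ndufaf3 and Sdhaf2, the ATP synthase inhibitor Atp5if1, the supercomplex factor Cox7a2l and the pseudogene Cox6c-ps1. Ndufa4 carries a complex I name and is counted there, although its protein is now placed with complex IV. A further 7 probe sets that share several such symbols (among them those of Cycs, Atp5mc1 and Cox7a2) were left out by the rule, so cytochrome c has no member, and genes of mitochondrial DNA were not analysed here.

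The study labelled all 55 arrays SHR kidney, and the descriptions call the animals Wistar-derived. The only condition in the labels is a stage word in the description: 13 arrays are called immature, 14 young and 14 mature, and 14 carry no stage word. No age, sex, treatment or diet is given, and nothing says whether the arrays came from separate animals, so the p-values describe only how these samples vary among themselves, in part perhaps for technical reasons. Kidney cells of many types were measured in bulk, and in such samples fewer cells of a type and less RNA per cell cannot be told apart.

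The respiratory chain passes electrons from NADH through complex I, or from succinate through complex II, to ubiquinone, then through complex III and cytochrome c to complex IV, which reduces oxygen. Complexes I, III and IV pump protons across the inner mitochondrial membrane, and the ATP synthase uses their return to make ATP. In the kidney, the proximal tubule and the thick ascending limb hold many mitochondria, because sodium transport there uses much ATP. Several complex IV subunits exist as isoforms, of which Cox6a2 and Cox8b are known from heart and skeletal muscle.

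The values are deposited intensities, scaled so that the trimmed mean of each array lay between 500.2 and 500.7. The intensities of different probe sets are not compared with each other, since probe sets differ in affinity. The control probe sets divided the arrays into 3 sets, called batches here although the labels name none: batch 1 has 6 immature and 4 mature arrays, batch 2 has 7 immature, 6 young and 6 without a stage word, and batch 3 has 8 young, 8 without a stage word and 10 mature. No batch holds every stage, so calls over all arrays are read beside those with the batch as a term in the fit. In addition, 2 mature arrays (replicates 1 and 9, numbered in order of deposit) had a GAPDH 3′ to 5′ signal ratio above 3, a sign of shortened RNA, at 7.18 and 3.47. They held 37 of the 112 highest or lowest values that the 56 genes have over the 55 arrays, while no other array held more than 8. On 9 arrays, 7 of them the immature arrays of batch 2, the 18S ribosomal RNA probe set read above 4000.

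Over the 4 descriptions, 14 of the 56 genes (25.0%) changed by limma's moderated F test with Benjamini-Hochberg adjustment over 6555 probe sets, beside 28.5% of all probe sets. They are Ndufa3, Ndufa4, Ndufb9, Ndufc1, Ndufc2 and Ndufs8 of complex I, Uqcrc2 and Uqcr11 of complex III, Cox4i1, Cox6a2, Cox6c and Cox7b of complex IV, and Atp5pb and Atp5pf of the ATP synthase. Neither gene of complex II passed. Given the batch, 6 genes passed (10.7%, beside 20.5% of all probe sets): Ndufa4, Ndufa6, Ndufc1, Ndufc2, Uqcrc2 and Atp5pb. Both shares are below those of the array as a whole, whereas with quantile scaling 18 genes passed (32.1%, beside 29% of all probe sets).

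**Figure D1:**
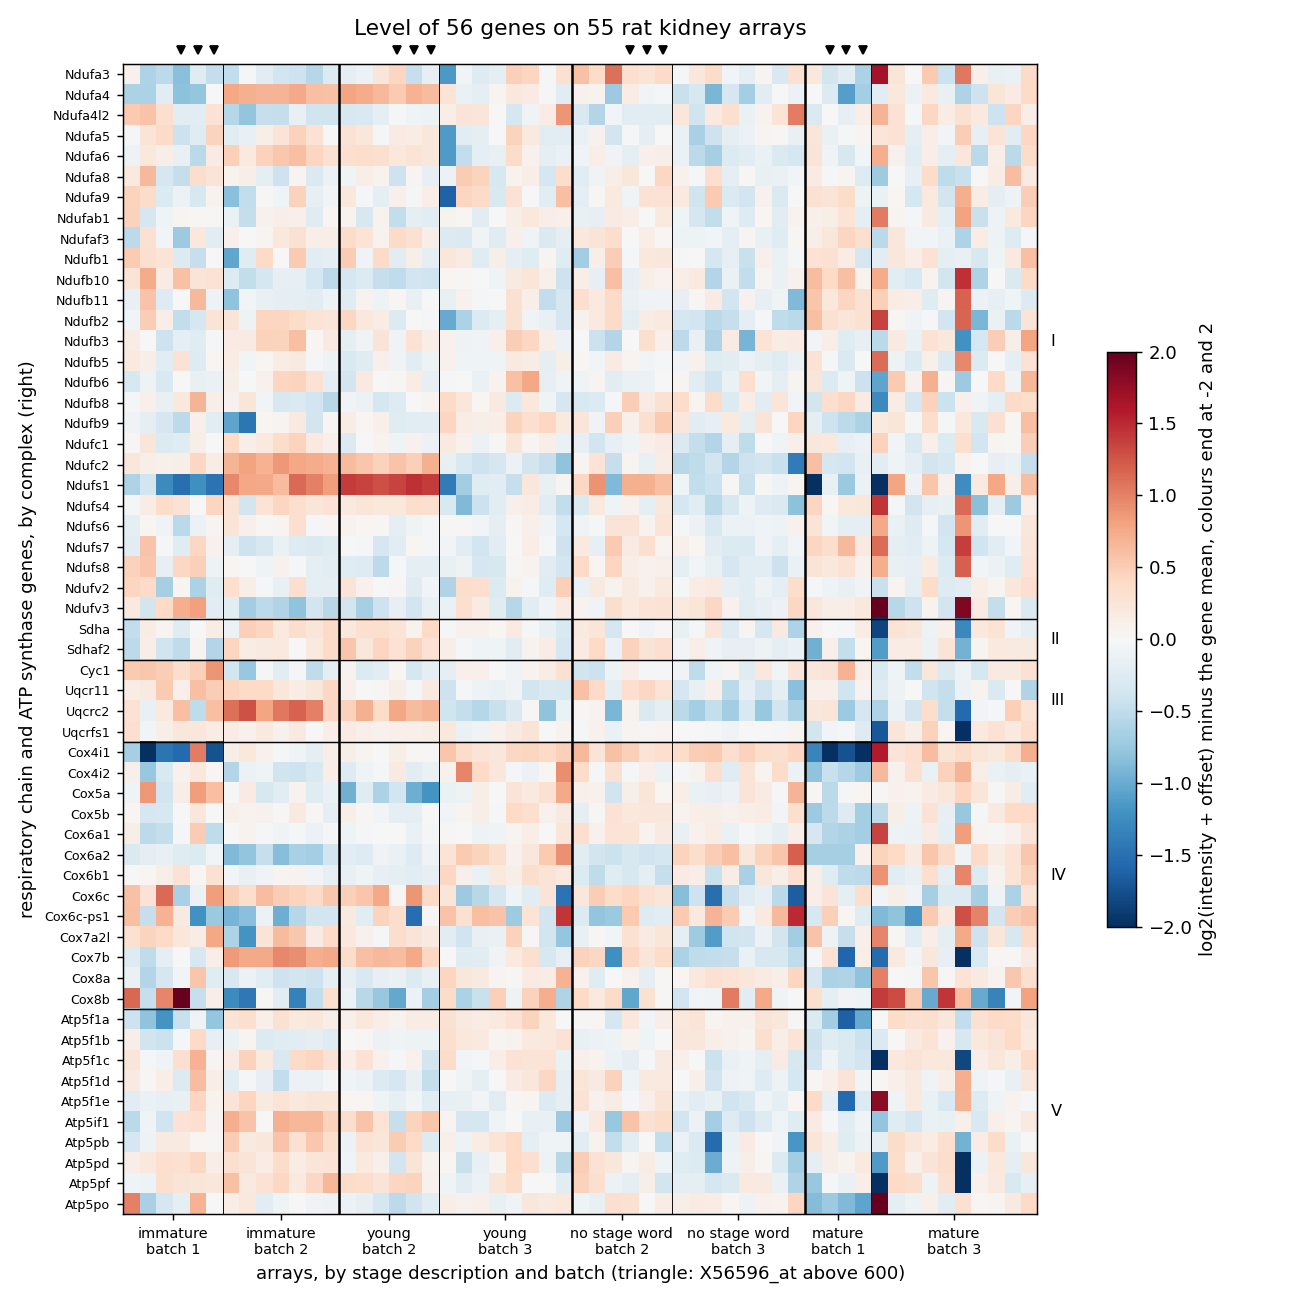
Intensity of each of the 56 genes (one line each, grouped by complex) in each of the 55 arrays (columns, grouped by stage description and batch), as log2(intensity + 15.82) minus the gene's mean over all arrays, with triangles over the arrays with X56596_at above 600 and colours that end at -2 and 2. The columns of mature replicates 1 and 9 stand out, and blocks of columns differ by batch within a stage for some genes, such as Cox4i1 in batch 1.

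The start regions of the genes the comparisons turned on are shown for Ndufc2 and Uqcrc2, the genes of complexes I and III with the smallest adjusted p over the descriptions, and for Cox6a2 and Cox4i1, whose levels followed the batches. Each runs 5′ to 3′ along the gene's strand, from 250 bases before to 50 after the RefSeq start in the build GRCr8, and capitals mark the motif matches found. Ndufc2 lies at chr1:161122940-161123239 (plus strand), Uqcrc2 at chr1:184598990-184599289 (plus), Cox6a2 at chr1:192219667-192219966 (minus) and Cox4i1 at chr19:65630133-65630432 (plus).
Ndufc2: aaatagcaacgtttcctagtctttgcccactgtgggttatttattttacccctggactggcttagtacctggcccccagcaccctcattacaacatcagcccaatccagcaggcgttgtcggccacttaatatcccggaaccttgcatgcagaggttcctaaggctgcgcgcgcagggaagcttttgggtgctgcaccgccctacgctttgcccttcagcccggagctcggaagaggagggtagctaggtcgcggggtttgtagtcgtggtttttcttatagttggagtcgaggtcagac
Uqcrc2: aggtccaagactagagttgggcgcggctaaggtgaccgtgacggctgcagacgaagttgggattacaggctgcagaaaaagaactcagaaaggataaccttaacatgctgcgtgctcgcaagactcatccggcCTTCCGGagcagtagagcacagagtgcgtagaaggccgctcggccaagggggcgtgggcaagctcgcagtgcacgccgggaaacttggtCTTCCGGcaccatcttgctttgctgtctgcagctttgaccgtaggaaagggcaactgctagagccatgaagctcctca
Cox6a2: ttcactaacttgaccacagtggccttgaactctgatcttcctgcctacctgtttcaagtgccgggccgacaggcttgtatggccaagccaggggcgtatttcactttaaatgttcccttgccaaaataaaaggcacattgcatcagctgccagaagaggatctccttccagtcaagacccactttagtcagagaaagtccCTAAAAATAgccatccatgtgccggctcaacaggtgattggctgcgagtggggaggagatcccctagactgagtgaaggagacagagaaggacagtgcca
Cox4i1: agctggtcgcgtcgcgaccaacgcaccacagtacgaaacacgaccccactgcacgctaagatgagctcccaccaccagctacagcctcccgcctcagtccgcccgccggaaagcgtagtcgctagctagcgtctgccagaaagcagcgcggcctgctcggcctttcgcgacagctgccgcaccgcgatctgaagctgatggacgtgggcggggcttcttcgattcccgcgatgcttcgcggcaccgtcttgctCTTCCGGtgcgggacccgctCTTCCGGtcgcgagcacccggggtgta
Uqcrc2 and Cox4i1 each hold 2 matches, on the reverse strand, of the ETS motif CCGGAAG, read by GABP among other factors. In Uqcrc2 they lie at positions -117 to -111 and -28 to -22 from the start, and in Cox4i1 at 3 to 9 and 23 to 29. Cox6a2 holds the MEF2 motif CTAAAAATA at -50 to -42, in letters chosen after its sequence was read, and Ndufc2 holds none of the motifs searched.

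Of the 56 genes, 47 had such a region in the table, of 27457 in all. On either strand, the ETS motif CCGGAAG was in 10 of the 47 (21.3%, against 9.22% of all regions): Atp5f1a, Atp5pf, Cox4i1, Cox5b, Cox8a, Ndufa6, Ndufs1, Ndufs8, Sdhaf2 and Uqcrc2. The NRF-1 motif GCGCANGCG was in 9 (19.1%, against 6.26%), those of Atp5f1c, Atp5po, Cox7a2l, Ndufa5, Ndufa6, Ndufb10, Ndufs6, Ndufv3 and Sdha. The YY1 motif AAGATGGCG was in 7 (14.9%, against 1.93%), those of Atp5pf, Ndufa6, Ndufa9, Ndufb8, Ndufs4, Ndufs6 and Ndufs7. One or more of these motifs was in 22 (46.8%, against 15.5%). The MEF2 motif CTAAAAATA was in Cox6a2 alone among the 47 (2.13%, against 0.517%). Because its letters were chosen after the Cox6a2 sequence was read, that match was fixed in advance and the shares allow no comparison. Matches of different motifs overlapped in none of the genes, and these matches describe the letters of the windows only.

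Mature and immature kidneys differed at 10 of the 56 genes (17.9%, beside 24.4% of all probe sets): 2 were higher in mature kidney (beside 10.3% of all) and 8 were lower (beside 14.1%). Without the 2 arrays with a high GAPDH ratio 5 were called (beside 24.9% of all), and without the 9 arrays with high 18S signal, which hold all 7 immature arrays of batch 2, 2 were called (beside 10.5%). The median log2 difference of the 56 genes was -0.00, against 0.04 for all probe sets, and the median absolute difference was 0.173 against 0.250. The differences lay between -0.80 (Uqcrc2) and 0.55 (Cox6a2), so none reached a full log2 unit. For 53 of the 56 genes the 95% confidence interval of the difference lay inside 1 log2 unit in either direction, and for 32 inside 0.5. By complex, the median differences were 0.01 in complex I, -0.21 in complex II, -0.43 in complex III, 0.10 in complex IV and -0.14 in the ATP synthase. These medians rest on 2 genes in complex II and on 4 in complex III.

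In complex I, Ndufc2, a membrane subunit, was the gene of the family with the smallest adjusted p over the descriptions (0.000161, and 3.15e-05 with the batch in the fit). Its intensity ran from 1717 to 2944 in the immature arrays (median 2587), from 912 to 2625 in the young (median 1462), from 600.3 to 1934 in those without a stage word (median 1218) and from 1155 to 2426 in the mature (median 1417). Of the 14 mature arrays, 13 lay below every immature array. The mature arrays were lower by a log2 difference of -0.64 ± 0.15 (SE; limma, adjusted p = 0.00102), the young by -0.46 (adjusted p = 0.0241) and those without a stage word by -0.83 (adjusted p = 2.95e-05). Once the batch was fitted, the difference of the arrays without a stage word was -0.68 (adjusted p = 6.46e-06), while that of the mature arrays was -0.22 (adjusted p = 0.202). Inside batch 2, where 3 of the descriptions meet, the immature arrays read 2587 to 2944, the young 2209 to 2625 and those without a stage word 1164 to 1934, so the last group stood below both of the others with no overlap. There, 10 of the 56 genes did not overlap between the immature arrays and those without a stage word (beside 20.9% of all probe sets), and 11 between the young and the latter (beside 13.1%).

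Ndufa4 showed the same arrangement inside batch 2. It read 5973 to 6822 in the immature and 5759 to 6938 in the young arrays there, and 2401 to 4430 in those without a stage word. Over all 55 arrays the ranges were 2265 to 6822 in the immature (median 5973), 3460 to 6938 in the young (median 4706), 2117 to 4430 without a stage word (median 3531) and 1846 to 5275 in the mature (median 3641). These ranges overlap, and its adjusted p over the descriptions was 0.0291, against 0.000273 with the batch in the fit (limma).

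Ndufa3, a small accessory subunit, ran the other way. Its intensity ran from 1294 to 2455 in the immature arrays (median 1730), from 1039 to 3234 in the young (median 2181), from 1866 to 4963 without a stage word (median 2821) and from 1494 to 7356 in the mature (median 2409). The groups overlap, and the mature arrays were higher by 0.54 ± 0.17 (SE; limma, adjusted p = 0.0120) and those without a stage word by 0.63 (adjusted p = 0.00343). Fitted with the batch, the differences were 0.55 (adjusted p = 0.0410) and 0.51 (adjusted p = 0.0424). The 2 highest mature values, 7356 and 4825, are those of the arrays with the high GAPDH ratio, and without these arrays the mature difference was 0.35 (adjusted p = 0.064).

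Of the other complex I genes that changed over the descriptions, Ndufb9 read 2006 to 6201 in the immature arrays (median 4856), 4617 to 7480 in the young (median 6041), 4698 to 7847 without a stage word (median 6360) and 3530 to 8369 in the mature (median 5497). It rose in the young by 0.42 (limma, adjusted p = 0.0209) and in the arrays without a stage word by 0.44 (adjusted p = 0.0101), and its adjusted p over the descriptions was 0.379 with the batch in the fit. The 2 lowest immature values of Ndufb9, 2645 and 2006, are those of replicates 7 and 8. Without replicate 8 the young difference was 0.33 (limma, adjusted p = 0.056). The call over the descriptions was lost without replicate 7 (adjusted p = 0.070) or without replicate 8 (adjusted p = 0.076). Ndufc1, which joins the same membrane part as Ndufc2, read 3161 to 5198 in the immature arrays (median 4134) and 2518 to 4274 without a stage word (median 3387). It fell in the latter by 0.31 (adjusted p = 0.0104), with a wide overlap. Ndufs8, an iron-sulfur subunit of the matrix arm, had an adjusted p over the descriptions of 0.0446, which rose above 0.05 when any of 26 of the 55 arrays was left out. Its lowest median, 3559, was in the young arrays and its highest, 4474, in the mature ones.

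Ndufa6 is an accessory subunit that passed over the descriptions with the batch in the fit (adjusted p = 0.0390, against 0.103 without it). It read 1737 to 3827 in the immature arrays (median 2922) and 1588 to 2766 without a stage word (median 2255). Ndufs1, the large iron-sulfur subunit that takes electrons from the flavin site, did not pass (adjusted p = 0.310), and it read 15 to 250 in batch 1, 139 to 774 in batch 2 and 8 to 478 in batch 3. The batches did not overlap among the young arrays (683 to 774 in batch 2 and 93 to 319 in batch 3) or the immature ones (428 to 614 in batch 2 and 85.2 to 207 in batch 1). They overlapped among the mature arrays (15 to 250 in batch 1 and 8 to 478 in batch 3) and those without a stage word (139 to 517 in batch 2 and 188 to 283 in batch 3).

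Complex II had 2 genes. Sdha, the flavoprotein that oxidises succinate, read 2342 to 4593 in the immature arrays (median 3646), 2675 to 4368 in the young (median 3495), 2135 to 3916 without a stage word (median 3249) and 911 to 4006 in the mature (median 3399). Its mature difference was -0.28 with a 95% interval from -0.57 to 0.02 (limma, adjusted p = 0.160). The 2 mature arrays with a high GAPDH ratio read 911 and 1344, and the other mature arrays read 2919.5 or more. Sdhaf2, which helps attach the flavin to Sdha, had medians of 1567, 1571, 1365 and 1500.2 in the same order, and its mature difference was -0.15 (interval -0.42 to 0.13). On the 2 arrays with a high GAPDH ratio Sdhaf2 read 645 and 727, and on mature replicate 5 it read 723. For both genes the 4 ranges overlap.

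In complex III, Uqcrc2, a core protein facing the matrix, had the lowest difference from immature kidney of the 56 genes in each of the other 3 descriptions. It read 1403 to 4838 in the immature arrays (median 3053), 1135 to 3427 in the young (median 1926), 1048 to 2110.0 without a stage word (median 1494) and 670 to 2792 in the mature (median 1882). The immature arrays held the highest values, though their range reaches into those of the other groups. Against them, the log2 differences were -0.80 ± 0.19 (SE; limma, adjusted p = 0.00126) for the mature, -0.57 (adjusted p = 0.0283) for the young and -1.01 (adjusted p = 5.21e-05) for the arrays without a stage word. Given the batch, the last was -0.94 (adjusted p = 5.95e-05) and the mature one -0.42 (adjusted p = 0.104).

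Uqcr11, a small membrane subunit of complex III, was the one gene of the 56 whose mature and immature arrays did not overlap (beside 0.519% of all probe sets). It read 6085 to 8570.3 in the immature arrays (median 7449), 4252 to 6434 in the young (median 5438), 3152 to 8499 without a stage word (median 5079) and 3709 to 6046 in the mature (median 5213). The mature arrays were lower by -0.50 ± 0.11 (SE; limma, adjusted p = 0.000542) and the young by -0.42 (adjusted p = 0.00442). Fitted with the batch, the mature difference was -0.23 (adjusted p = 0.148), and the gene's second probe set gave -0.23 (adjusted p = 0.13). The remaining genes of complex III, the Rieske iron-sulfur protein Uqcrfs1 and cytochrome c1 (Cyc1), had mature differences of -0.36 (interval -0.70 to -0.02, adjusted p = 0.107) and -0.05 (interval -0.30 to 0.21, adjusted p = 0.806).

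**Figure D2:**
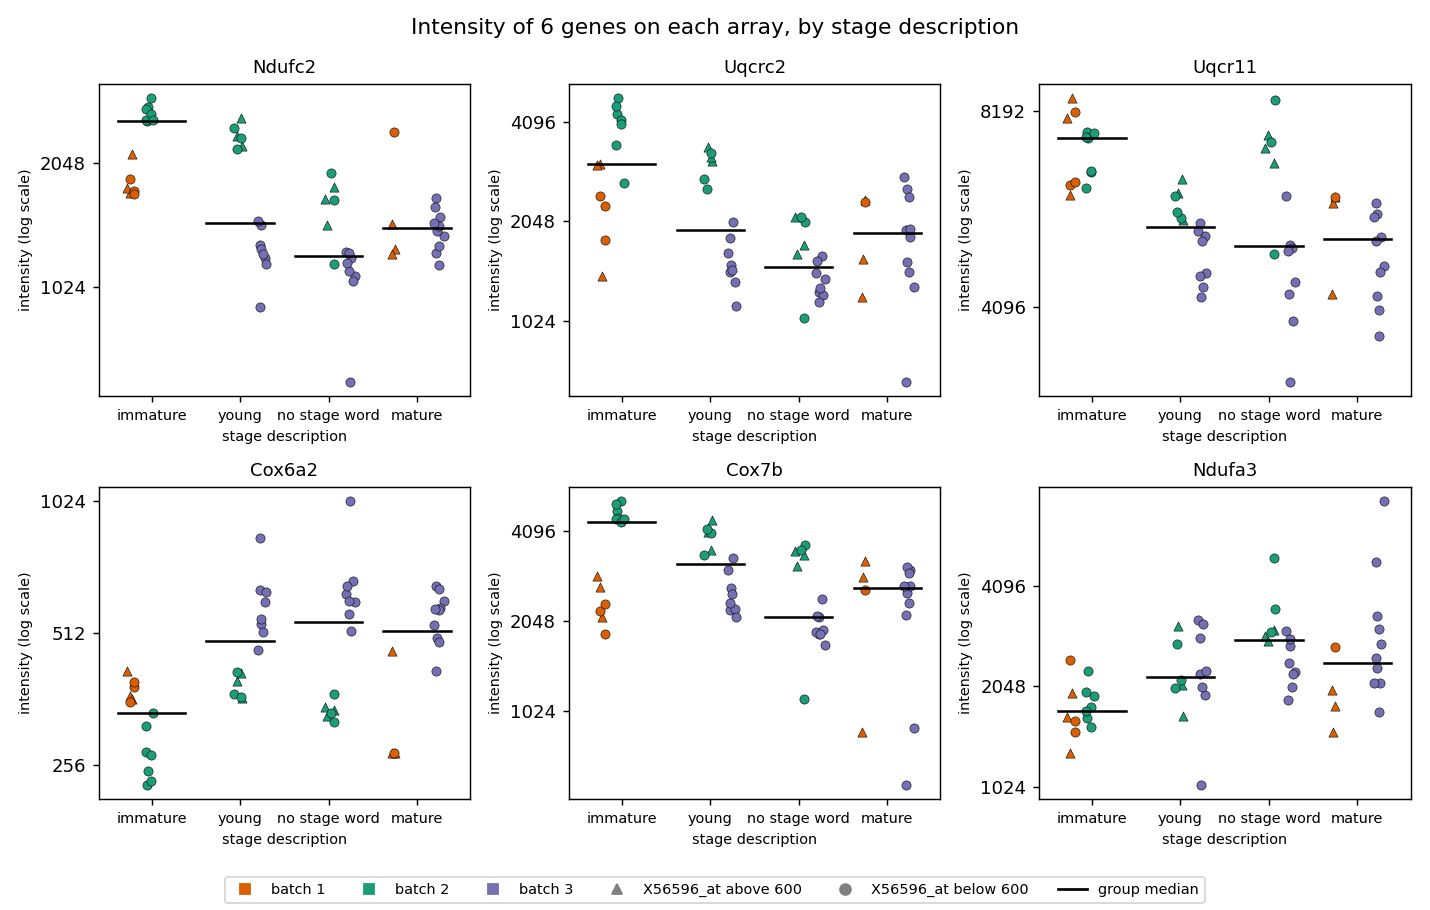
Deposited intensity (log axis) of Ndufc2, Uqcrc2, Uqcr11, Cox6a2, Cox7b and Ndufa3 in each array, by stage description, with colours for the batch, triangles for arrays with X56596_at above 600, circles for those below and a bar at the group median. Uqcr11 is the panel in which the immature arrays (6085 to 8570.3) and the mature ones (3709 to 6046) do not overlap, and Cox6a2 that in which batch 3 lies highest (418 to 1023).

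In complex IV, Cox6a2, the muscle isoform of subunit VIa, rose. It read 230.2 to 419.5 in the immature arrays (median 336), 363 to 843 in the young (median 490.4), 321 to 1022.5 without a stage word (median 541) and 272 to 653 in the mature (median 515). The log2 differences from the immature arrays were 0.55 ± 0.16 (SE; limma, adjusted p = 0.00751), 0.62 (young, adjusted p = 0.00412) and 0.61 (no stage word, adjusted p = 0.00251). With the batch in the fit the mature difference was 0.00 with an interval from -0.22 to 0.22 (adjusted p = 0.999). Its range was 272 to 465 in batch 1, 230.2 to 416 in batch 2 and 418 to 1023 in batch 3, so batch 3 lay almost wholly above the others. Inside batch 2 the young arrays (363 to 416) still lay above the immature ones (230.2 to 336), a difference of 0.50 (limma on the 3 groups there, adjusted p = 0.00022). It is one of 4 genes of the family, with Atp5f1e, Ndufc1 and Ndufs1, whose groups were apart there, beside 14.7% of all probe sets. A second probe set of Cox6a2 gave 0.38 for the mature (not called), 0.21 for the young and 0.67 for the arrays without a stage word. It read 56.1 to 276.7 in batch 1, 57.6 to 288.8 in batch 2 and 94.9 to 743.6 in batch 3, which overlap widely. The remaining one was dim, at 65.6 or less on every array.

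Marker genes of skeletal and heart muscle also differed between batches, with medians in the same order as those of Cox6a2 but with other spacing. Summed over the 21 muscle genes on the array, their intensity was 2457 to 3558 in batch 1, 1454 to 2198 in batch 2 and 1933 to 4524 in batch 3. In batch 1 their median, 2576, was near that of batch 3, 2645, and above that of batch 2, 1838, while Cox6a2 had medians of 364, 337 and 592 in batches 1, 2 and 3. By description it was 1454 to 3558 in the immature arrays, 1848 to 3840 in the young, 1633 to 3233 without a stage word and 2067 to 4524 in the mature. Of the 15 that were tested 1, Casq1, was higher in mature kidney (0.45, limma, adjusted p = 0.036). The part of these cells in the values of Cox6a2 was not tested. Its widely expressed partner isoform Cox6a1 read 6627 to 13528 in the immature arrays (median 9299), 8751 to 11352 in the young (median 9594), 8397 to 12005 without a stage word (median 10095) and 5978 to 24327 in the mature (median 9300), all overlapping. Its mature difference was 0.10, with an interval from -0.16 to 0.36 (adjusted p = 0.588).

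The medians of Cox4i1, the common isoform of subunit IV, spread more between batches than between stages. It read 1578 to 21994 in batch 1 (median 3467), 9476 to 17068 in batch 2 (median 11824) and 12516 to 32763 in batch 3 (median 14044). By description the medians were 10241 in the immature arrays, 12880 in the young, 14350.0 without a stage word and 13045 in the mature, and the immature and mature ranges, 2534 to 21994 and 1578 to 32763, enclose those of the others. The arrays without a stage word were higher than the immature by 0.90 (limma, adjusted p = 0.0180), which became -0.05 (adjusted p = 0.901) with the batch in the fit. A second probe set read 2487 to 15479 in batch 1 (median 4719) and 7914 to 13584 in batch 3 (median 10014), in the same direction. The remaining one read 2951 to 5865 in batch 1 (median 4235) and 2464 to 4238 in batch 3 (median 3285), so the probe sets of Cox4i1 disagree over batch 1. Cox4i2, the lung-type isoform, had medians of 640, 694, 723 and 630 in the immature, young, unworded and mature arrays and did not pass (adjusted p = 0.183).

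Cox7b and Cox6c, small subunits of complex IV, were lower in mature kidney over all arrays, but limma called neither with the batch in the fit. Cox7b read 1859 to 5156 in the immature arrays (median 4385), 2119 to 4457 in the young (median 3173), 1126 to 3661 without a stage word (median 2114) and 581 to 3240 in the mature (median 2638). Its immature arrays read 1859 to 2896 in batch 1 and 4385 to 5156 in batch 2. The 2 mature arrays with a high GAPDH ratio read 900 and 581, and the mature difference of -0.70 ± 0.22 (SE; limma, adjusted p = 0.014) was -0.45 (adjusted p = 0.076) without these arrays. Cox6c read 348 to 1230 in the immature arrays (median 774) and 343 to 710 in the mature (median 525), which overlap. Its difference of -0.54 ± 0.21 (adjusted p = 0.0483) lost its call when any of 30 of the 55 arrays was left out, and its second probe set gave 0.36 (adjusted p = 0.36).

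Cox8a, the common isoform of subunit VIII, did not pass over the descriptions (limma, adjusted p = 0.159), with medians of 12752 in the immature arrays, 15611 in the young, 16294 without a stage word and 15686 in the mature. Its muscle partner Cox8b read 19 to 416 in the immature arrays (median 65.8), 31 to 141.0 in the young (median 62.5), 30.0 to 178 without a stage word (median 79.8) and 22 to 238 in the mature (median 88.3). All groups overlap (adjusted p = 0.620). The array holds no pair of Cox7a1 and Cox7a2 among these genes, since the probe set of Cox7a2 shares several symbols.

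Of the 10 ATP synthase genes, Atp5pb and Atp5pf changed over the descriptions. Atp5pb, the b subunit of the peripheral stalk, read 2619 to 4922 in the immature arrays (median 3743), 2725 to 4730.2 in the young (median 3607), 1133 to 3722 without a stage word (median 2934) and 1718 to 4273 in the mature (median 3632). The arrays without a stage word were lower than the immature by -0.52 (limma, adjusted p = 0.00282), and by -0.56 (adjusted p = 0.00549) with the batch in the fit. Atp5pf, coupling factor 6 of the same stalk, read 2272 to 3859 in the immature arrays (median 2932) and 503 to 3205 in the mature (median 2321). Its mature difference of -0.59 ± 0.18 (adjusted p = 0.0128) was -0.28 (adjusted p = 0.055) without the 2 arrays with a high GAPDH ratio, which read 556 and 503.

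A further pair of ATP synthase genes was lower in mature than in immature kidney. Atp5f1c, the central rotor subunit gamma, differed by -0.46 ± 0.17 (SE; limma, adjusted p = 0.0377), and by -0.17 (adjusted p = 0.21) without the arrays with a high GAPDH ratio. Atp5if1, which inhibits the enzyme when it runs in reverse, differed by -0.39 ± 0.14 (adjusted p = 0.0416). This call was lost when any of 14 of the 55 arrays was left out. Its other 3 probe sets gave -0.62 (adjusted p = 0.23), 0.37 (adjusted p = 0.025) and -0.62 (adjusted p = 0.0063), so they disagree in direction. Among the 10 called genes, 7 other probe sets were tested, of which 5 had the same direction.

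**Figure D3:**
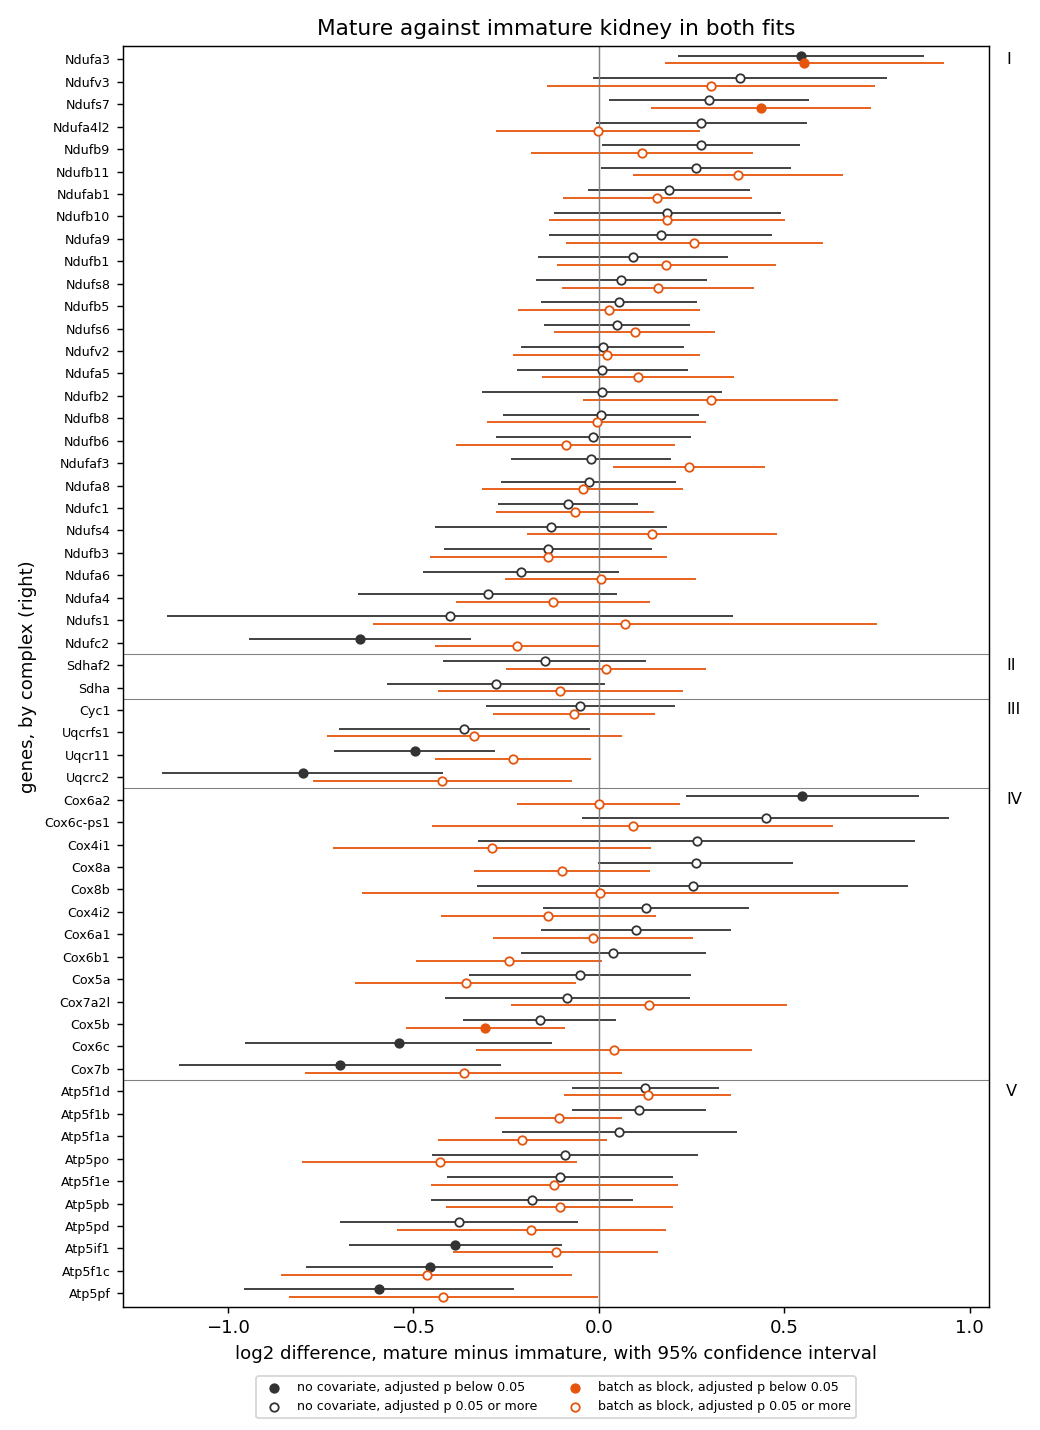
Log2 difference of mature minus immature arrays for each of the 56 genes, by complex, with the 95% confidence interval from limma, over all arrays (black) and with the batch as a term in the fit (orange), filled where the adjusted p is below 0.05. Uqcrc2 lies lowest at -0.80 and Cox6a2 highest at 0.55 over all arrays, and Cox6a2 is at 0.00 with the batch in the fit.

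With the batch in the fit, 3 of the 56 genes differed between mature and immature kidney (5.36%, beside 12.6% of all probe sets), 2 higher (beside 4.97%) and 1 lower (beside 7.67%). They are Ndufa3, Ndufs7, an iron-sulfur subunit next to the quinone site, which rose by 0.44 (limma, adjusted p = 0.0397), and Cox5b, a zinc-binding subunit of complex IV, which fell by 0.31 (adjusted p = 0.0480). Neither Ndufs7 (0.30, adjusted p = 0.0955) nor Cox5b (-0.16, adjusted p = 0.255) passed without the batch. The 2 highest Ndufs7 values of all arrays, 7226 and 8667, are those of mature replicates 1 and 9, which had the high GAPDH ratio. For Cox5b these arrays read 4767 and 4041, the latter the lowest of all, and mature replicates 4, 5 and 12 of batch 1 read 4758, 4134 and 4272. The fit with the batch was not made without the 2 arrays. Inside batch 1, the one batch with both stages (6 immature and 4 mature arrays), limma called none of the 56 genes (beside 0.717% of all probe sets), and 10.7% of the genes had an unadjusted p under 0.05, beside 14.4% of all. The difference of Uqcr11 there was -0.38 (adjusted p = 0.37), and its 2 groups did not overlap, as in 4.94% of all probe sets.

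Young and immature kidneys differed at 5 of the 56 genes (8.93%, beside 18.7% of all probe sets): Cox6a2 and Ndufb9 rose (beside 9.47% of all) and Ndufc2, Uqcrc2 and Uqcr11 fell (beside 9.21%). With quantile scaling 8 passed (beside 18.1% of all), 2 higher (beside 8.65%) and 6 lower (beside 9.49%). Given the batch, 1 passed (Cox5a, a matrix-side subunit of complex IV, which was lower, beside 8.89% of all probe sets changed and 4.38% lower). Inside batch 2 limma called 11 of the 56 genes, beside 32.8% of all probe sets. Between mature and young kidney none of the 56 genes passed limma's test (beside 1.8% of all probe sets). At an unadjusted p under 0.05 there were 11 (19.6%), beside 19.6% of all probe sets. None passed with the batch in the fit (beside 1.31%), where 4 (7.14%) had an unadjusted p under 0.05, beside 16.7% of all.

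The arrays without a stage word differed from the immature ones at 14 of the 56 genes (25.0%, beside 27% of all probe sets), with Cox4i1, Cox6a2, Ndufa3 and Ndufb9 higher (beside 12.7% of all) and 10 lower (beside 14.4%): Atp5if1, Atp5pb, Cox6c, Cox7a2l, Ndufa6, Ndufc1, Ndufc2, Ndufs4, Uqcr11 and Uqcrc2. Among these 14 genes, 12 other probe sets were tested, of which 8 had the same direction. Of the 12, 3 were called in that direction and 1 in the opposite one. The other probe sets of Ndufa6 and Cox6c gave 0.16 and 0.20, while these genes were called lower. With quantile scaling 19 passed (33.9%, beside 27.4% of all), 3 higher (beside 13.7%) and 16 lower (28.6%, beside 13.8%). Given the batch, 8 passed (14.3%, beside 20% of all): Ndufa3 was higher (beside 8.68%), and 7 were lower (beside 11.4%), namely Atp5pb, Cox6b1, Ndufa4, Ndufa6, Ndufc1, Ndufc2 and Uqcrc2. Inside batch 2, 25 of the 56 passed (44.6%, beside 43.4% of all probe sets), in both directions.

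Against the young arrays, those without a stage word differed at none of the 56 genes (limma, beside 0.229% of all probe sets), and 5 (8.93%) had an unadjusted p under 0.05, beside 8.01% of all. Once the batch was fitted, Ndufa4 and Ndufc2 were lower (beside 1.01% of all called and 0.748% lower). Inside a batch this comparison gave 16 called genes in batch 2, beside 27.1% of all probe sets, and none in batch 3 (beside 0%), where 3 (5.36%) had an unadjusted p under 0.05, beside 2.85% of all. Mature arrays differed from those without a stage word at none of the 56 genes (limma, beside 0.412%), and 7 (12.5%) had an unadjusted p under 0.05, beside 13.2% of all. With the batch in the fit 5 were higher in mature kidney, Atp5pb, Ndufa4, Ndufa6, Ndufc2 and Uqcrc2 (8.93%, beside 5.26% of all called and 2.4% higher). The comparisons with the immature arrays share those arrays, so their calls are not independent of each other.

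Within a stage, the batches themselves stood apart for a number of the genes. Among the young arrays 13 of the 56 genes (23.2%, beside 13.6% of all probe sets) did not overlap between batches 2 and 3, of which Atp5f1b, Cox4i1, Cox5a, Cox6a2 and Cox8a were higher in batch 3 and Cox7b, Ndufa4, Ndufc2, Ndufs1, Ndufs4, Sdhaf2, Uqcr11 and Uqcrc2 lower. Among the immature arrays 8 did not overlap between batches 1 and 2 (14.3%, beside 19.3%), with Atp5f1a, Cox7b, Ndufa4, Ndufc2 and Ndufs1 higher in batch 2 and Cox6a2, Cyc1 and Ndufb10 lower. Among the mature arrays 5 did not overlap (8.93%, beside 4.07%), and Atp5po, Cox4i1, Cox4i2, Cox6a1 and Cox8a were all higher in batch 3. Among the arrays without a stage word 3 did not overlap (5.36%, beside 12.9%), Cox6a2, which was higher in batch 3, and Cox6c and Ndufs8, which were lower.

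Marker genes of the nephron segments also differed between the stages. For the proximal tubule, 5 of 14 tested markers were higher in mature than in immature kidney and 1 was lower, among them Slc22a2, an organic cation transporter, at a log2 difference of 1.27. Given the batch, 4 were higher and 1 lower, and the list's median difference went from 0.25 to -0.03. Their summed intensity had a median of 82601 in the immature arrays and of 111283 in the mature, and their ranges overlap (67788 to 102933 and 62364 to 140199). By batch the medians were 78270 (batch 1), 89768 (batch 2) and 118241 (batch 3). Of 10 markers of the thick ascending limb and distal nephron 3 were higher and 2 lower (median 0.18), but none was higher and 4 were lower with the batch in the fit (median -0.06). Their sum had medians of 33053, 44547 and 53156 in the batches in turn. Of 8 collecting duct markers 4 were lower in mature kidney, with sums of 8518 to 12974 in the immature and 6164 to 8843 in the mature arrays. Of 4 erythroid markers 2 were lower, with sums of 9842 to 20366 and 5887 to 12082. These last counts were also 4 and 2 with the batch in the fit. Of all probe sets, 10.3% were higher and 14.1% lower, and 4.97% and 7.67% with the batch. Over the descriptions, 4 of 8 immune markers changed, and 3 with the batch in the fit. Whether these cells had a part in the values of the 56 genes was not tested.

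The arrays also divide by the intensity of X56596_at, a probe set of RT1-Bb, the beta chain of an MHC class II molecule, with 12 arrays above 600 (1412 to 2381) and 43 below (80.1 to 263). Each description has 3 arrays above. Those of the immature and mature arrays all lie in batch 1, those of the young and unworded arrays all lie in batch 2, and batch 3 has none, so the side and the batch overlap in large part. The side is a measured level and no label of the study.

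With the stage in the fit, 2 of the 56 genes differed between the sides (3.57%, beside 9.15% of all probe sets called and 5.42% lower), and 9 (16.1%) had an unadjusted p under 0.05, beside 22.3% of all. Cox4i1 was lower above 600 by -0.81 (limma, adjusted p = 0.0134) and Atp5f1a, the alpha subunit of the ATP synthase head, by -0.42 (adjusted p = 0.0192). With quantile scaling 3 were called (beside 8.38% of all), 1 higher (Ndufb8, beside 4.01%) and 2 lower (beside 4.36%). Without mature replicate 12 none was called by limma, and each of Atp5f1a and Cox4i1 lost its call without 1 further mature array, replicate 8 (adjusted p = 0.096) and replicate 4 (adjusted p = 0.053). Replicate 12 had a GAPDH 3′ to 5′ signal ratio of 2.62, which is raised though under the limit of 3 used above. It held the lowest Cox4i1 value of all arrays. With the batch in the fit none was called (beside 2.12% of all) and 1 (1.79%) had an unadjusted p under 0.05 (beside 8.76%), and the differences were 0.09 for Cox4i1 and 0.04 for Atp5f1a (adjusted p = 0.98 each). The summed proximal tubule markers had a median of 87978 above and 113063 below 600, and their part in the difference was not tested.

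Inside 1 stage and 1 batch, the 3 arrays above and those below gave no common direction for Cox4i1. In the young arrays of batch 2 it read 11080, 11095 and 11723 above and 10899, 11226 and 11826 below, and in those without a stage word 13086, 13746 and 15075 above and 12934, 16241 and 17068 below. In the immature arrays of batch 1 it read 3240.0, 3694 and 21994 above and 2534, 3939 and 6817 below, where 1 array above stands far from the rest. In the mature arrays of batch 1 it read 1578, 2322 and 3238 above and 4330.0 in the one array below. Its 2 other probe sets gave split differences of 0.05 (adjusted p = 0.79) and -0.36 (adjusted p = 0.17) over all arrays.

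Atp5f1a read 2658, 3357 and 4359 above and 1987, 2603 and 3421 below in the immature arrays of batch 1, and 4775, 5050.2 and 5066 above and 4913, 4995 and 5260.4 below in the young arrays of batch 2. In the arrays without a stage word of batch 2 it read 4384, 4981 and 5262 above and 3611, 4617 and 4678 below. In the mature arrays of batch 1 it read 1468, 2272 and 2813 above and 3774 in the array below. The groups overlap in every cell with more than 1 array on each side, and batch 1, which holds 6 of the 12 arrays above 600, read low on both sides.

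The difference between the sides itself varied with the stage for 5 of the 56 genes, Cox4i1, Cox8a, Atp5f1a, Cox5a and Ndufa4 (8.93%, beside 2.72% of all probe sets, by limma's F test of the interaction). None was called with the batch in the fit, beside 0.534% of all, and 8 (14.3%) had an unadjusted p under 0.05 there, beside 10.3% of all.

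**Figure D4:**
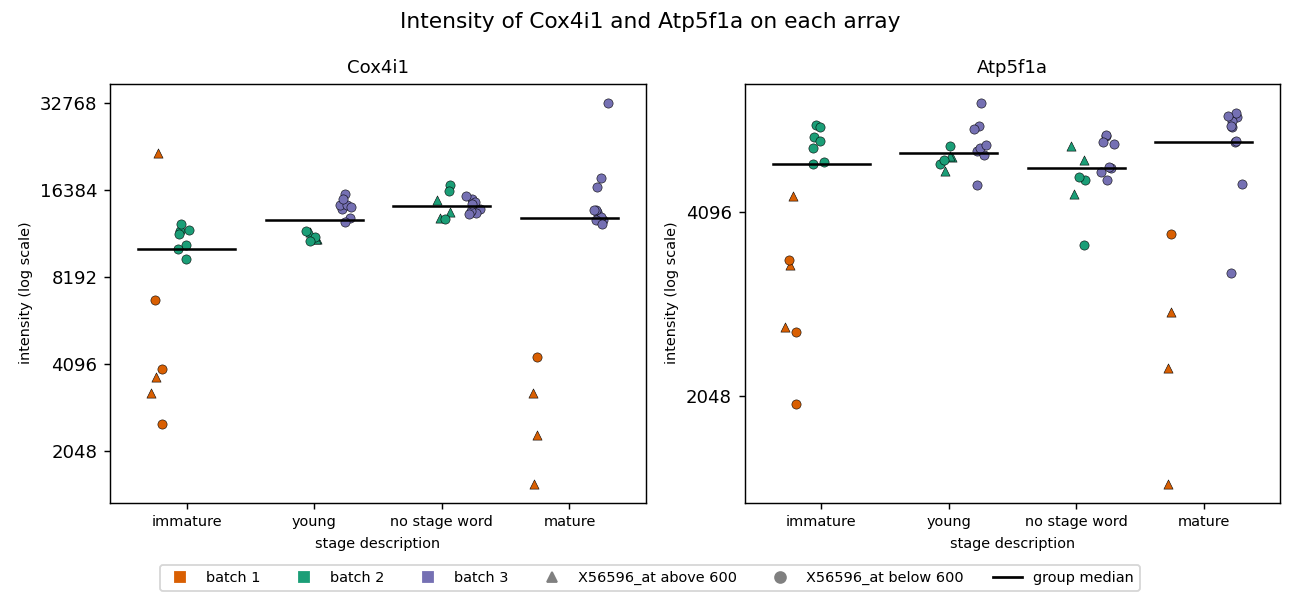
Deposited intensity (log axis) of Cox4i1 and Atp5f1a in each array, by stage description, with triangles for arrays with X56596_at above 600, circles for those below, colours for the batch and a bar at the group median. The mature arrays above 600, all of batch 1, lie low (1578 to 3238 for Cox4i1), while the young ones above 600, all of batch 2, lie among those below.

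Genes that feed or surround the respiratory chain were read from lists taken with earlier results of these data known. Of 17 genes of the citric acid cycle and pyruvate dehydrogenase, 4 changed over the descriptions and 2 were higher in mature than in immature kidney. These were the pyruvate dehydrogenase kinase Pdk2 (0.52, limma, adjusted p = 0.0010) and the pyruvate dehydrogenase phosphatase Pdp2 (0.41, adjusted p = 0.0083). Given the batch, Pdk2 remained higher (0.47, adjusted p = 0.00594) and Pdp2 was at 0.07 (adjusted p = 0.675). The list's median difference was -0.05, against 0.04 for all probe sets.

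Of 16 carriers and uncoupling genes, Atp5if1 included, 5 changed over the descriptions, and 3 were higher and 2 lower in mature kidney. The ATP/ADP carrier Slc25a4 was lower (-0.56, limma, adjusted p = 0.0074) and the adenylate kinase Ak3 higher (0.48, adjusted p = 0.012). Given the batch, 1 of the 16 was called over the descriptions and none between mature and immature kidney by limma (3 at an unadjusted p under 0.05), where Slc25a4 was at -0.33 (adjusted p = 0.202) and Ak3 at 0.38 (adjusted p = 0.139).

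Of 12 electron transfer and oxidant genes 3 changed over the descriptions, and 4 were lower and 1 higher in mature kidney. They include the NADPH-producing transhydrogenase Nnt (-0.76, adjusted p = 0.00091) and Etfa, which carries electrons from fatty acid oxidation (-1.03, adjusted p = 0.0031). Given the batch, limma called none of the 12 over the descriptions (6 at an unadjusted p under 0.05) and 1 between mature and immature kidney, Nnt (-0.59, adjusted p = 0.0373), while Etfa was at -0.64 (adjusted p = 0.116). Of 10 import and chaperone genes 3 changed, with the receptor Tomm20 (-0.47, adjusted p = 0.014) and the processing peptidase subunit Pmpcb (-0.47, adjusted p = 0.023) lower in mature kidney. Given the batch, 2 changed over the descriptions and none between mature and immature kidney (limma, 2 at an unadjusted p under 0.05), with Tomm20 at -0.20 (adjusted p = 0.377) and Pmpcb at -0.13 (adjusted p = 0.665).

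Of 5 regulators of mitochondrial biogenesis 1 changed over the descriptions, the thyroid hormone receptor Thrb (limma, adjusted p = 0.045, and 0.71 with the batch in the fit). Of 18 glycolysis genes 8 changed, and 5 were higher and 1 lower in mature kidney, with a list median of 0.23. Hexokinase Hk1 was higher by 0.51 (adjusted p = 0.00039) and the phosphofructokinase Pfkp lower by -0.53 (adjusted p = 0.00067). With the batch, 7 changed over the descriptions, and 3 were higher and 1 lower in mature kidney, with a list median of 0.13. These counts stand beside the 24.4% of all probe sets called between mature and immature kidney and the 28.5% called over the descriptions, or 12.6% and 20.5% with the batch in the fit.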

How the data were processed

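Total RNA of 55 rat kidney samples was read on Affymetrix arrays of 8799 probe sets. The deposited values are intensities, 1 per probe set and array, which the authors scaled; from the values, the mean after trimming 2% at each end was 500.2 to 500.7 on every array. Sources used here do not give the scanner software or background steps. The number of arrays limits the precision. Symbols came from the platform annotation, updated through RefSeq: 7018 probe sets have 1 symbol, 308 several and 1473 none.

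Intensities were analysed as log2(intensity + 15.82), the offset being 0.1 of the overall median of 158.2. After removal of 59 control probe sets and of those under the 25th percentile of mean log2 value, 6555 were tested with limma 3.58.1 in R 4.3.3 (lmFit, eBayes, Benjamini-Hochberg, threshold 0.05, 2-sided), and all 56 genes passed this filter. Fold changes are on this log2 scale, which understates those of dim probe sets. No pair of arrays was identical. The 3 batches came from Ward clustering of 42 control probe sets, and scripts were tested on simulated data. Figures used matplotlib 3.10.9.

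The genes named are those called over the descriptions or in the split at 600, the 2 with the smallest p in each complex, isoform pairs, and up to 3 called genes of each list. Others that are named were chosen after their values were seen. Members, lists and batches were chosen with earlier results of these data known. Alternatives were other offsets, filters, scaling, probe set averaging, array weights, blocks and left-out arrays.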

Additional observations from a re-analysis of the deposited data

Results flagged for a closer look

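For 5 of the 56 genes (beside 2.72% of all probe sets) the difference between arrays with X56596_at above and below 600 varied with the stage description, by limma's moderated F test of the interaction with Benjamini-Hochberg adjustment. The 3 arrays above 600 of each of the immature and mature descriptions lie in batch 1 and those of the others in batch 2, so the stage and the batch of these arrays cannot be told apart. At an unadjusted p under 0.05 there were 19 genes (33.9%), beside 19.6% of all probe sets. With the batch in the fit limma called none of the 56 (beside 0.534% of all), and 8 (14.3%) had an unadjusted p under 0.05, beside 10.3% of all.

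Cox4i1 had the smallest adjusted p (0.0053), with log2 differences, above minus below, of -0.36 in the immature arrays, -0.24 in the young, -0.07 in those without a stage word and -2.58 in the mature. Cox8a (adjusted p = 0.0072) differed by 0.40, -0.30, -0.17 and -0.92 in the same order. Atp5f1a (adjusted p = 0.015) differed by -0.34, -0.08, 0.01 and -1.27. The mature arrays gave the lowest value for each of these 3 genes. Among the mature arrays above 600 is replicate 12, with a GAPDH 3′ to 5′ signal ratio of 2.62 and the lowest Cox4i1 and Cox8a of all arrays. Cox5a, a matrix-side subunit of complex IV, differed by 0.55, -0.81, 0.08 and -0.28 (adjusted p = 0.033). Ndufa4 differed by -0.85, 0.41, 0.35 and -0.66 (adjusted p = 0.036). It was lower above 600 in the immature and mature descriptions, whose arrays above 600 lie in batch 1, and higher in the other 2. Most immature and mature arrays below 600 lie in other batches, so these differences are not taken inside 1 batch. In the immature arrays of batch 1 it read 2265, 2319 and 4027 above 600 and 2567, 2568 and 3424 below, which overlap.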

How the results depend on the processing

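No paired analysis was possible because the labels number the arrays but match none of them with an array of another stage. Counts of the 56 genes called are given for each setting that moved them by over 1.5 times, in the order over the descriptions, mature against immature, young against immature and no stage word against immature, beside 14, 10, 5 and 14. Array weights gave 29, 23, 16 and 31 (51.8%, 41.1%, 28.6% and 55.4%, beside 60.8%, 56.3%, 44.3% and 58.4% of all probe sets). The batch as a block gave 6, 3, 1 and 8, and the batch and the side of 600 together 6, 2, 0 and 7 (all probe sets 15.9%, 9.93%, 5.49% and 15.0%). Leaving out the 9 arrays with high 18S signal, which leaves the immature group with batch 1 alone, gave 7, 2, 10 and 5 (all 18.3%, 10.5%, 18.0% and 15.1%). The genes called in a setting need not be those called over all arrays. Here only 1 of the 10 mature, 1 of the 5 young and 3 of the 14 calls without a stage word were kept. Mature against immature gave 5 without the 2 arrays with a high GAPDH ratio, 5 among the arrays above 600 (all 5.71%) and 0 inside batch 1. The 5 above 600 include none of the 10 called over all arrays. Young against immature gave 11 inside batch 2, 10 among arrays below 600 (all 19.2%) and 8 with quantile scaling. No stage word against immature gave 25 inside batch 2 and 4 among arrays above 600 (all 12.7%), of which 1 was among the 14 called over all arrays. Mature against young (0) gave 6 among arrays above 600 (all 7.35%) and 1 without the high 18S arrays. No stage word against young (0) gave 6 with array weights (all 5.68%), 2 with either batch block (all 1.01% with the batch alone), 16 inside batch 2 and 1 without the high 18S arrays. Mature against no stage word (0) gave 1 with array weights, 5 with either batch block (all 5.26% with the batch alone) and 6 above 600 (all 2.23%). Counts given without a share of all probe sets, and those with 1 array left out, show only how far the calls move. The split at 600 (2) gave 1 with probe sets averaged, 18 with array weights (all 29.6%), 5 without the high GAPDH arrays (all 12.4%), 0 with the batch block, 0 inside each single stage and batch, 0 with stage-by-batch cells as blocks and 1 for these without batch 3, and its interaction with stage (5) gave 0 with the batch block.

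Leaving out 1 array at a time gave 9 to 15 genes over the descriptions, 7 to 11 mature against immature, 3 to 7 young against immature, 11 to 18 no stage word against immature, 0 to 1 mature against young, 0 to 4 in the split (0 without mature replicate 12) and 0 to 0 in the others. Signs turned as follows. Mature against immature, Cox6a2 became -0.27 inside batch 1, -0.22 above 600 and -0.028 with batch and side, Cox6c 0.042 with the batch, 0.12 with batch and side and 0.12 above 600, and Atp5if1 0.018 inside batch 1. Young against immature above 600, Ndufb9 became -0.0080, Ndufc2 0.36 and Uqcrc2 0.46. No stage word against immature above 600, Atp5if1 became 0.19, Cox6a2 -0.16, Cox6c 0.30, Ndufa6 0.18 and Ndufc1 0.10. In the same comparison Cox4i1 became -0.053 with the batch and -0.091 with batch and side, and Cox7a2l 0.064 inside batch 2. In the split, Atp5f1a became 0.042 with the batch, 0.38 in immature arrays of batch 1, 0.19 in batch 2 without a stage word and 0.034 with cells as blocks, with or without batch 3. Cox4i1 became 0.087, 0.65 (immature, batch 1) and 0.015 likewise. The cause of these changes was not tested. No sign turned with other offsets, filters, quantile scaling, trend and robust variance, array weights, the side as a block, averaged probe sets, arrays below 600 alone, or without the high GAPDH or high 18S arrays.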
